A study of Homo sapiens with 17 samples.

Results

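*OTP*, *SIM1*, *SIM2*, *NR2E1* and *POU3F2* are 5 genes for transcription factors of the developing hypothalamus and forebrain, and their promoter interactions were compared here between naive and primed human pluripotent stem cells (PSCs). Both cell types came from H9 NK2, an established human embryonic stem cell line. Naive PSCs, which resemble the preimplantation epiblast, were grown on Matrigel in t2iL+PKCi, a medium with PD0325901, CHIR99021, human LIF and Gö6983. Primed PSCs, which resemble the epiblast after implantation, were grown on Vitronectin in TeSR-E8, and both cultures were kept at 5% oxygen. Medium, matrix and cell state differ together, so that they cannot be told apart, and one line gives no measure of how lines vary.

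Promoter Capture Hi-C (PCHi-C) enriches a Hi-C library for ligated pairs in which one end is a baited HindIII fragment with a promoter, and CHiCAGO scores each pair of fragments against the background for its distance. The 5 genes were chosen with their contacts known, so contact numbers describe them and carry no test. The name column of the deposited lists gave only a strand, and baits were therefore named from GENCODE release 44 on GRCh38, by a transcript start or the 1000 bp upstream of it. This gave 6 baited fragments of 15982, with 265 contacts of 128955 in either list, to 232 partner fragments of 88413. Each cell type has 1 list, made from 2 replicates, with pairs scoring at least 5. The weakest contacts of the 6 baits that were listed scored 5.01 in naive PSCs and 5.00 in primed PSCs.

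These factors act in the making of hypothalamic and forebrain neurons. *OTP* encodes a homeodomain protein and *SIM1* a basic helix-loop-helix PAS protein, and both are needed for the neuroendocrine neurons of the paraventricular and supraoptic nuclei. SIM1 binds DNA with ARNT2 as its partner, and POU3F2 (BRN2), a POU-domain factor, acts after them in the neurons that make oxytocin, vasopressin and corticotropin-releasing hormone. *SIM2* is the paralogue of *SIM1*, and *NR2E1* (TLX) encodes an orphan nuclear receptor that keeps neural stem cells dividing. In primed PSCs such developmental genes are as a rule silent and carry Polycomb marks, often at CpG-rich promoters. Polycomb-bound promoters are known to contact one another over long distances. H3K4me1, the histone mark measured beside the contacts, is found at enhancers and on the flanks of promoters.

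*OTP* has 2 baits. One lies on its promoter (chr5:77637718-77639734, 2017 bp). The other (chr5:77618007-77637464, 19458 bp) covers the gene body, a further *OTP* transcript start and the promoter of *WDR41*. A short fragment between them (chr5:77637465-77637717) was not baited. *SIM1* has a short bait (chr6:100464803-100465625, 823 bp), while a fragment with a further *SIM1* transcript start and one with sequence just upstream were not baited. *SIM2* (chr21:36692337-36706978, 14642 bp), *NR2E1* (chr6:108162435-108172313, 9879 bp, which also holds the promoter of *OSTM1*) and *POU3F2* (chr6:98830237-98844939, 14703 bp) have 1 bait each. *SIM1*, *NR2E1* and *POU3F2* thus lie on one arm of chromosome 6. The *SIM1* bait with its 823 bp and the *OTP* gene body bait with its 19458 bp hold different numbers of sites and of H3K4me1 tiles, and contact numbers of different baits are given side by side without a comparison of bait strength. All values are averages over a population, in which more cells with a contact and more contact per cell cannot be told apart.

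The promoters themselves are shown because contacts were measured from the baits that hold them. Of the 5 genes, 4 were matched in the RefSeq promoter table (GRCh38.p14), and *SIM2* was not. The *OTP* window lies in its promoter bait, so *SIM2* and the *OTP* gene body bait have no window here. The 250 bases before the transcript start are given on the strand of the gene, and capitals mark each CpG dinucleotide.
OTP, chr5:77638714-77638963, minus strand: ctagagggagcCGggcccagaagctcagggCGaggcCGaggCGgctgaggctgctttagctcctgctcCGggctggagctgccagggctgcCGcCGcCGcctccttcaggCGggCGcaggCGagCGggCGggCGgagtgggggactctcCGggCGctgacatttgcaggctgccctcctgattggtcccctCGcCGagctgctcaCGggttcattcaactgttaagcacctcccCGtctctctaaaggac
SIM1, chr6:100464922-100465171, minus strand: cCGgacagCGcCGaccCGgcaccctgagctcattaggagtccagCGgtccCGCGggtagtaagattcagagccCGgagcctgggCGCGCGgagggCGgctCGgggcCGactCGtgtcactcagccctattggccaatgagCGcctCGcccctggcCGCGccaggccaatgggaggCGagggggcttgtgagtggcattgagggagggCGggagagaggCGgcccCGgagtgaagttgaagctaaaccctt
NR2E1, chr6:108165772-108166021, plus strand: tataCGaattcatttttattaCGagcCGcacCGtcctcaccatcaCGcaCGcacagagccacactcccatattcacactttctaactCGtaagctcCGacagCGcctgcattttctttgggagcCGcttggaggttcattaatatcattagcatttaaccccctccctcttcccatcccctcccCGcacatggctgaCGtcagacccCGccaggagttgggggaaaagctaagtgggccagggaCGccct
POU3F2, chr6:98834324-98834573, plus strand: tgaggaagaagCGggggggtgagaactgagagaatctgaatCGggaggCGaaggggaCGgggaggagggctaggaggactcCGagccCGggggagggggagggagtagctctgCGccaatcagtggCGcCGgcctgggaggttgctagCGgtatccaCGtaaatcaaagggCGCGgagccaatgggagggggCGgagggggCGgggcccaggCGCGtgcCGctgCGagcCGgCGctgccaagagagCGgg
They hold 20, 23, 14 and 22 CpGs, against a median of 11 over the 35114 promoters of the table. The *OTP* promoter has 68.8% GC, *SIM1* 68.4%, *NR2E1* 53.6% and *POU3F2* 69.2%, with a median of 58.0% over all promoters. The share of promoters with fewer CpGs was 67.6% for *OTP*, 74.2% for *SIM1*, 55.2% for *NR2E1* and 72% for *POU3F2*, so all 4 held more CpGs than the median promoter, while *NR2E1* had less GC. A later *NR2E1* start in the table (chr6:108167773-108168022) had 6 CpGs and 46.8% GC. The core of the SIM1 binding site (TACGTG, either strand) occurred once in the *POU3F2* window and is found in 2.76% of all promoters. The homeodomain core TAATTA (4.35% of promoters), the octamer ATGCAAAT of POU factors (1.63%) and the NR2E1 half-site AAGTCA (10.9%) had no match in the 4 windows.

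All 6 baits had more contacts in primed than in naive PSCs, 61 in the naive list and 255 in the primed list (ratio 4.18, 95% interval from counting error 3.16 to 5.53). The promoter bait of *OTP* went from 23 to 71 contacts and its gene body bait from 2 to 21, *SIM1* from 18 to 53, *SIM2* from 3 to 24, *NR2E1* from 5 to 41 and *POU3F2* from 10 to 48. All 6 at least doubled, as did 29.5% of all 15982 baits, and since the genes were chosen by their contacts nothing is read from this difference. Over the complete lists the numbers were 79330 and 88985 (ratio 1.12), and the median bait had 3 contacts in each cell type. Counted over all baits, 17 had more primed contacts than the *OTP* promoter, 73 more than *SIM1* and 103 more than *POU3F2*. *NR2E1* was exceeded by 181 baits, *SIM2* by 794 and the *OTP* gene body by 1007.

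**Figure D1:**
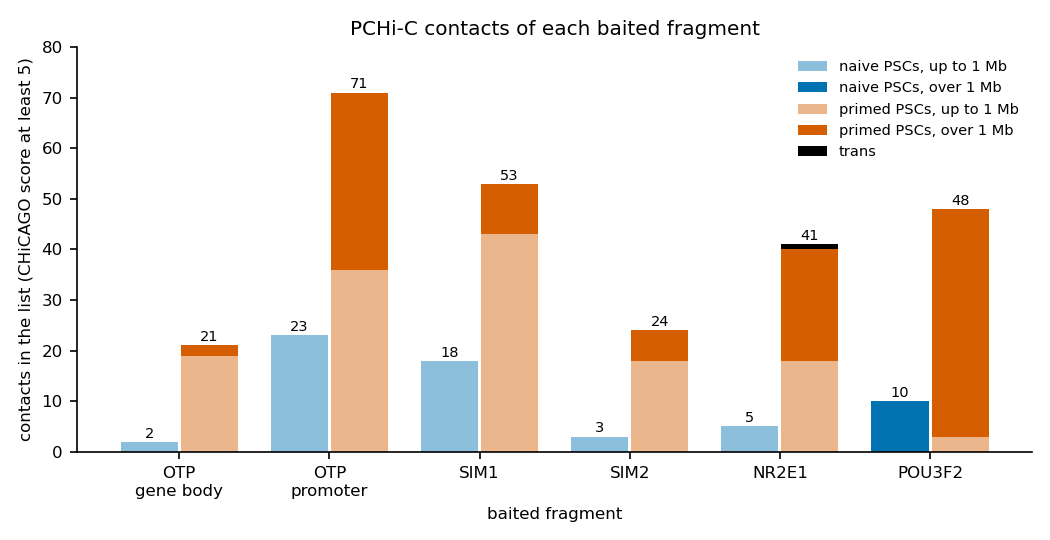
Number of PCHi-C contacts of each of the 6 baits in naive and primed PSCs, stacked as cis contacts up to 1 Mb, cis contacts over 1 Mb and trans contacts. The bars reach from 2 to 23 contacts in naive PSCs and from 21 to 71 in primed PSCs, and contacts over 1 Mb appear in naive PSCs for POU3F2 alone.

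Most of what the naive list held was also in the primed list. Of the 61 naive contacts, 51 (83.6%, Wilson interval 72.4 to 90.8) were listed in primed PSCs, where they made up 20.0% (15.6 to 25.3) of the contacts. Over the complete lists these shares were 49.6% and 44.2%. For the 5 genes the share of primed contacts was 44.3% with ends matched within 10 kb and 6.72% at a score of at least 10. The 10 contacts listed in naive PSCs alone were 7 of the *OTP* promoter, between its partners at *TBCA* and those at *AP3B1*, and 1 each of *SIM1*, *NR2E1* and *POU3F2*. Contacts listed in primed PSCs alone numbered 55 for the *OTP* promoter, 39 for *POU3F2*, 37 for *NR2E1*, 36 for *SIM1*, 21 for *SIM2* and 19 for the *OTP* gene body. Among the 51 shared contacts, the primed read number was higher in 36, lower in 12 and equal in 3, with a median ratio of 1.21, and over all 39360 shared contacts 65.8% had more primed reads (median ratio 1.16). The median ratio was 2.67 for *POU3F2*, whose 9 shared contacts all had more primed reads, 1.5 for the *OTP* promoter, 1.05 for *SIM1* and 0.838 for *SIM2*, so that the shared contacts of *SIM1* and *SIM2* had ratios near 1.

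Long-range contacts (over 1 Mb) were more numerous in primed PSCs. They numbered 117 in primed PSCs, 45.9% (39.9 to 52.0) of the primed contacts of these genes, and 10 in naive PSCs (16.4%), against 6.73% and 1.68% of the complete lists. *POU3F2* had 45 in primed PSCs, the *OTP* promoter 35, *NR2E1* 22, *SIM1* 10, *SIM2* 6 and the *OTP* gene body 2. Only 6 of all baits had more of them than *POU3F2* and 13 more than the *OTP* promoter. In naive PSCs all 10 belonged to *POU3F2*, and the other 5 baits had primed but no naive long-range contacts, a pattern that 7.3% of all baits showed. At least 10 primed long-range contacts were found at 4 of the 6 baits and at 1.2% of all baits. Beyond 5 Mb there were 39 contacts in primed PSCs, 18 of *NR2E1*, 14 of the *OTP* promoter, 7 of *SIM1* and 2 of *POU3F2*, and none in naive PSCs. A contact between baits of 2 of these genes is counted once in each sum.

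Long contacts rested on few reads. The primed contacts up to 1 Mb had a median of 24 reads (7 to 543), those over 1 Mb 8 reads (3 to 35), and those over 5 Mb 5 reads (3 to 12), while the median scores were 9.81, 11.1 and 11.7. The score sets the reads against a background that falls with distance, so that a contact at 10 Mb with 5 reads can score higher than a near one with 30. The reads are scaled numbers from combined replicates, and how far the replicates differed at single contacts is not known from these lists.

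**Figure D2:**
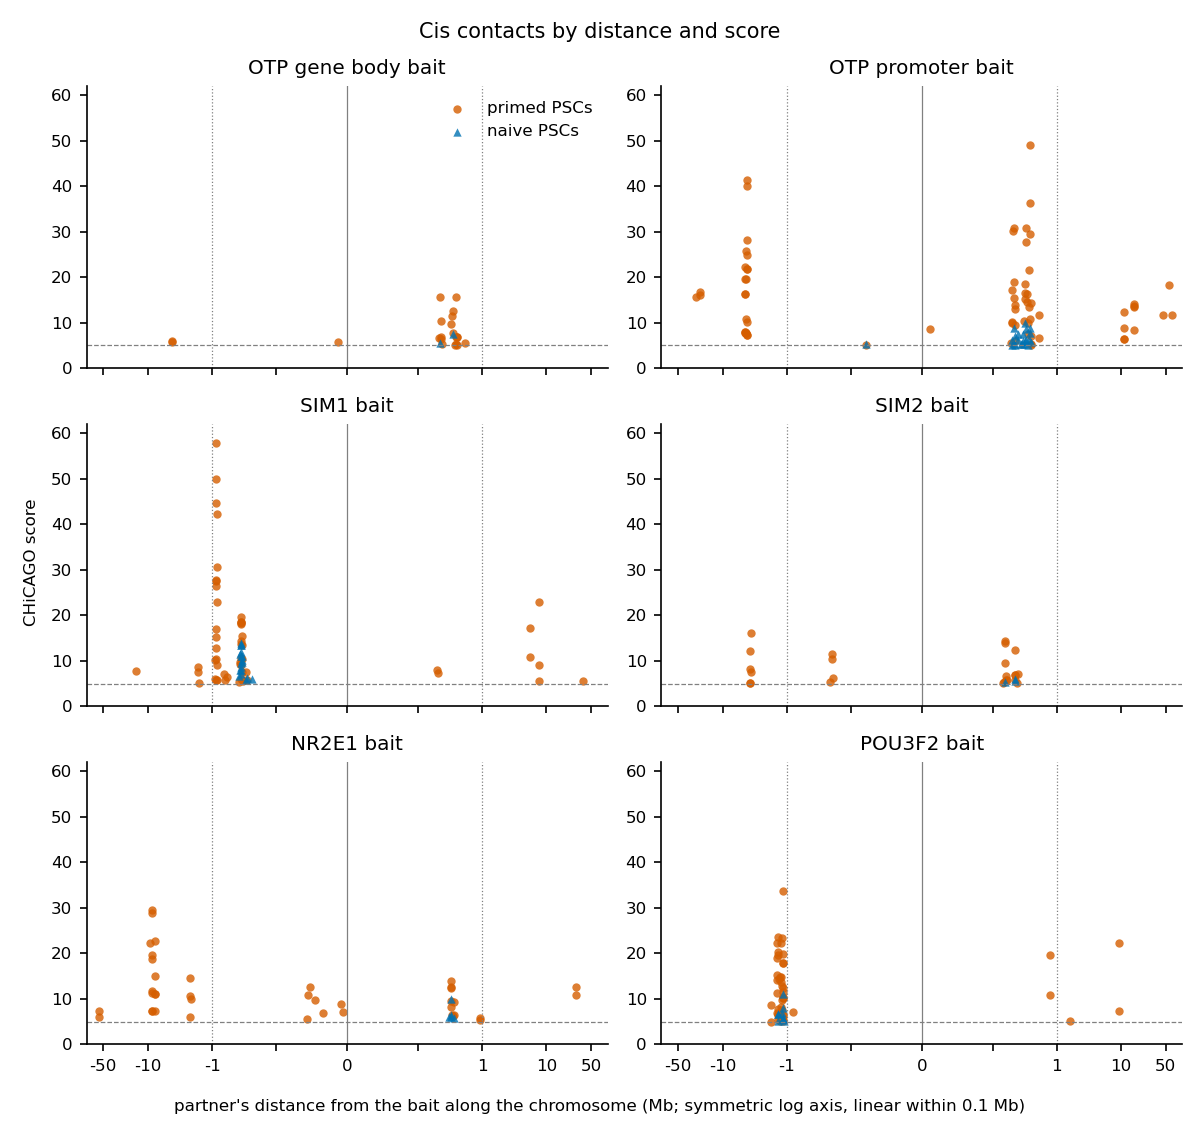
CHiCAGO score of each contact against its signed distance from the bait (Mb, symmetrical log scale), in 1 panel per bait, for naive and primed PSCs. The naive contacts reach 1.34 Mb at most and the primed ones 62.5 Mb, with the highest score, 57.9, at a PRDM13 fragment of the SIM1 panel.

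The *OTP* promoter showed both kinds of contacts. Of its near partners, a run of 39 fragments lies 189 to 398 kb away in *TBCA*, which encodes a tubulin folding cofactor, and at the promoter of *AP3B1*, a subunit of the AP-3 adaptor complex. The *AP3B1* fragment chr5:78012494-78015884, 375 kb away, scored 8.89 with 25 reads in naive PSCs and 49.1 with 89 reads in primed PSCs. Its neighbour chr5:78015885-78016823 scored 7.65 (23 reads) and 36.4 (74 reads). A *TBCA* intron fragment (chr5:77853016-77854648) scored 8.91 and 30.7. The other near partners were a *WDR41* intron at 79.0 kb, listed in both cell types, the fragment beside the bait (398 primed reads, score 8.63) and a pair in *AP3B1* at 520 and 524 kb, listed in primed PSCs. A far set of partners was listed in primed PSCs alone. It began with *FOXD1*, a forkhead gene of the early hypothalamus and the kidney stroma, whose promoter fragment chr5:73443071-73454670 lies 4.19 Mb away (17 reads, score 41.4). A run of 9 fragments around *FOXD1* held 92 primed reads, and a further run of 12 fragments near *TMEM174* reached a score of 25.8.

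Other far partners of *OTP* lay up to 62.5 Mb away. *NR2F1* (COUP-TF1), a nuclear receptor of cortical patterning, was contacted at 15.95 Mb (chr5:93586023-93592627, 5 reads, score 13.6). *MCIDAS* and *CCNO*, a pair of neighbouring genes for multiciliated cell formation, lay 22.4 Mb away with 5 and 6 reads (scores 16.8 and 16.2). The host gene of the neural microRNA miR-9-2 (*LINC00461*), a region near *ISL1*, a *PRDM6* intron and an exon of *PITX1* (57.4 Mb, 5 reads, score 18.3) were further partners. The farthest was an exon fragment of *PURA*, which also holds the promoter of *MALINC1*, at 62.5 Mb (4 reads, score 11.7). The gene body bait contacted *FOXD1* too, with 4 reads at each of 2 fragments (scores 6.06 and 5.64), and *AP3B1* with 24 reads (score 15.6), but neither in naive PSCs.

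*SIM1* had a large partner region in both cell types and others in primed PSCs alone. The region near *MCHR2*, a receptor gene for melanin-concentrating hormone (chr6:100087648-100230448), held 21 partner fragments, of which 18 were listed in naive and 20 in primed PSCs and 17 in both. Its best naive fragment, chr6:100116211-100117274, scored 13.9 (33 reads) in naive and 19.6 (40 reads) in primed PSCs. A run of 18 fragments at and around *PRDM13*, a zinc finger gene of the developing neural tube and hypothalamus 860 kb away, had no naive contact. There the promoter fragment chr6:99602064-99608224 had 61 primed reads (score 50.01) and the intron fragment chr6:99611274-99612201 had 55 (score 57.9), the highest score of any contact of the 5 genes. Among far partners were *PRDM1*, a transcriptional repressor needed for germ cells and plasma cells (5.53 Mb, 6 reads, score 10.9), *NR2E1* itself (7.70 Mb, 9 reads, score 22.8), a region near *TBX18* and, farthest, one near *OLIG3* at 37.0 Mb (3 reads, score 5.46).

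*SIM2* on chromosome 21 had the fewest far partners after the *OTP* gene body. Its 3 naive contacts lie in introns of *HLCS*, for holocarboxylase synthetase, and were listed again in primed PSCs, with reads of 37 and 31, 35 and 19, and 47 and 50 in naive and primed PSCs. In primed PSCs 14 fragments of *HLCS* and 4 of *CLDN14* were listed. The 6 long-range contacts of *SIM2* all went to one region at 3.63 to 3.68 Mb, which holds *OLIG2* and *OLIG1*, the helix-loop-helix genes of motor neuron and oligodendrocyte precursors. The exon fragment of *OLIG1* had 8 reads (score 16.04) and the *OLIG2* promoter fragment chr21:33023351-33027295 6 reads (score 12.2).

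*NR2E1* had the most contacts beyond 5 Mb. In naive PSCs it had 5 contacts, all in *AFG1L* at 305 to 354 kb, of which 4 were kept, the strongest with 28 reads in naive and 25 in primed PSCs. In primed PSCs it also contacted its neighbour *OSTM1*, *SESN1*, and *PRDM1* at 2.18 Mb (9 reads, score 14.6). Its far partners were the *SIM1* promoter (9 reads, score 22.8) with 4 more fragments of that gene, *PRDM13* at 8.56 Mb (intron fragment, 12 reads, score 29.6), *POU3F2* at 9.33 Mb (8 reads, score 22.3), *OLIG3* at 29.3 Mb (5 reads, score 12.6) and *TFAP2D* at 57.5 Mb (3 reads at 2 fragments, scores 5.99 and 7.29). The single trans contact of the 5 genes was also one of *NR2E1*, to the *HOXB9* fragment chr17:48623659-48629179 with 3 reads (score 7.62), in primed PSCs.

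*POU3F2* stood apart in that its 10 naive contacts were all long-range. They lie 1.11 to 1.34 Mb upstream, between the gene and *MMS22L*, a DNA repair gene, with 7 to 12 reads each. All but 1 were listed in primed PSCs with higher read numbers: chr6:97705390-97705910 had 8 reads (score 5.67) in naive and 35 reads (score 33.7) in primed PSCs, and the baited fragment chr6:97666640-97671790 had 12 (6.99) and 33 (23.5). Over both cell types, 2 runs of 14 and 27 fragments covered this gene-poor region, of which 14 and 26 were listed in primed PSCs. *KLHL32* at 1.76 Mb, *PRDM13* at 768 kb (27 reads, score 19.7), *SIM1* at 1.63 Mb (7 reads, score 5.21) and *NR2E1* were partners of *POU3F2* in primed PSCs alone.

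The 3 genes of chromosome 6 were thus in contact with each other and with *PRDM13* in primed PSCs, and none of these contacts was listed in naive PSCs. Drawn as a network, in which each fragment is a node and each listed interaction an edge, *SIM1*, *POU3F2* and *NR2E1* lay in 3 separate naive sub-networks of 24, 20 and 63 nodes. In primed PSCs they lay in one of 2256 nodes and 3552 edges, which also held *OTP* (85 nodes in naive PSCs) and the promoters of 281 protein-coding genes on 4 chromosomes. The shortest path found between *OTP* and *NR2E1* had 5 steps, among them 2 trans interactions, of an unbaited *OTP* fragment with *HOXB2* and of *HOXB9* with *NR2E1*. With trans interactions left out *OTP* lay among 901 and *NR2E1* among 567 nodes. At a score of at least 7 the primed sub-network had 762 nodes, and those of *OTP* and *NR2E1* in naive PSCs had 8 and 14. *SIM2* went from 4 nodes in naive to 205 in primed PSCs, with 29 protein-coding promoters. Left without interactions over 1 Mb, the primed network split the 3 genes of chromosome 6 into 2 parts.

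The Hi-C libraries were used to look at the same regions without capture. They held 52056334 contacts in primed and 31310843 in naive PSCs, 1 library each, in bins of 100 kb. For each pair of bins, the primed count was set against the mean count of all pairs at that distance on that chromosome, weighted by the coverage of the bins, and intervals are Poisson intervals for counting error. The long-range contacts fell into 28 pairs of bins, with a median ratio to expectation of 5.55. In 25 of them the count was at least 2 times the expectation, against 14.2% of all 39123 bin pairs at these distances on these chromosomes, and in 21 the interval lay above 1. PCHi-C enriches Hi-C libraries, so both data types need not be independent.

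Several of the far contacts had many Hi-C reads. *OTP* and *FOXD1* had 29 with 2.34 expected (12.4-fold, 8.31 to 17.8), *SIM1* and *NR2E1* 16 with 1.25 expected (12.8-fold, 7.29 to 20.7), and *POU3F2* and *NR2E1* 14 (15.5-fold, 8.47 to 26.0). *NR2E1* had 17 with *PRDM13* (21.1-fold, 12.3 to 33.8), 16 with *OLIG3* (32.7-fold, 18.7 to 53.0) and 6 with *TFAP2D* (34.6-fold, 12.7 to 75.3). *SIM2* and the *OLIG* genes had 12 (5.58-fold, 2.88 to 9.75). Over the 17 pairs beyond 5 Mb the observed sum was 117 with 11.1 expected.

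Some other pairs had a smaller excess in Hi-C, or none. *SIM1* and *POU3F2* had 11 counts with 19.5 expected (0.563-fold, 0.281 to 1.01), so their listed contact of 7 reads had no excess in the uncaptured library. No count was seen between *OTP* and *MCIDAS* with *CCNO* (0.205 expected, upper limit 18.0-fold) or the *NR2F1* promoter bin (upper limit 5.66-fold). At this depth an excess below these limits cannot be told from none. The next bin, with 3 further partner fragments near *NR2F1*, had 3 counts (5.51-fold, 1.14 to 16.1). The bins of *POU3F2* and its upstream region had 110 to 145 primed counts, 3.05 to 3.82 times the expectation. The naive file listed 70 to 95. These counts are not scaled for depth, with 31310843 contacts in naive and 52056334 in primed PSCs. The lower naive counts are therefore not read as less contact. At the other long-range pairs the naive file listed nothing, but it lists 9.10% of bin pairs at 1 to 2 Mb and 0.553% at 2 to 5 Mb on these chromosomes, against 91.2% and 80.9% in the primed file, so naive and primed Hi-C could not be compared there. The bin pair of *NR2E1* and *HOXB9* had 2 counts in primed and 0 in naive PSCs.

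**Figure D3:**
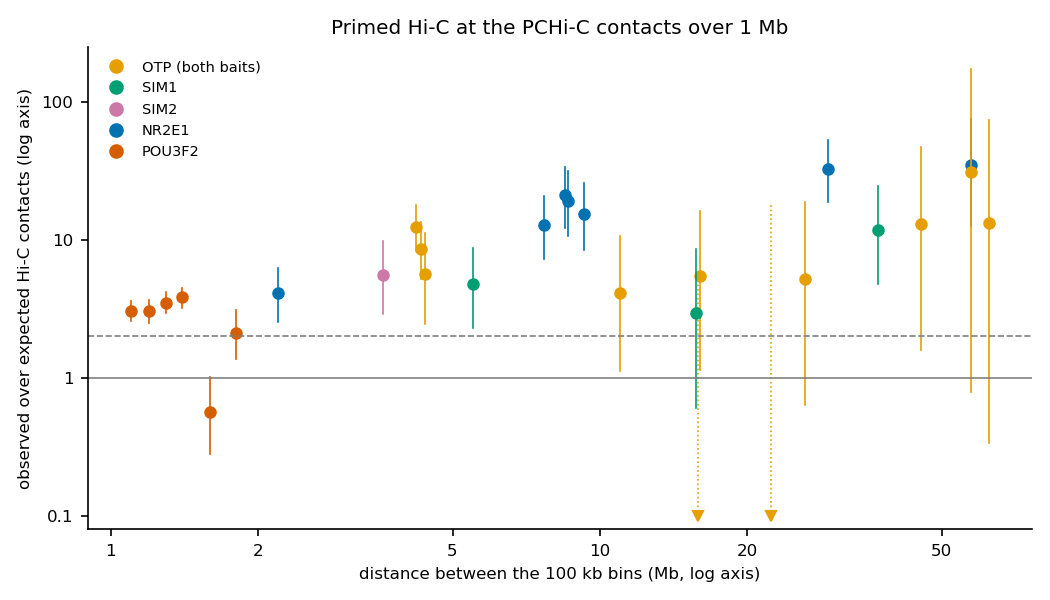
Primed Hi-C count over expectation (log axis) against distance (Mb, log axis) for the 28 bin pairs of long-range contacts, with 95% Poisson intervals and lines at 1 and 2. Pairs with a count of 0 are drawn as triangles at 0.1, and the 2 highest ratios, 34.6 and 32.7, belong to NR2E1.

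H3K4me1 had no part in the choice of the genes. CUT&RUN, which cuts and releases the DNA around a mark, gave 2 libraries of naive and 3 of primed PSCs. Values are log2 RPM (reads scaled to the size of the library) in tiles of 500 bp, and a fragment's value is the mean over its tiles. Naive replicate 1 with about 21790000 reads and primed replicate 3 with 26600000 were deeper than the other 3 libraries with 6740000 to 8850000, in which 42.0 to 52.3% of tiles were empty, so low values are less exact there. The libraries are described as biological replicates, and p-values measure the spread between them. Markers were checked at their baits. Of 4 baited naive markers, 3 (*DPPA5*, *DPPA3* and *SUSD2*) had more H3K4me1 in naive PSCs, but of 5 baited primed markers none was higher in primed PSCs, so the mark at these baits was higher with the label for most naive markers and for none of the primed ones.

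At their baits, *POU3F2* and *SIM2* had more H3K4me1 in primed PSCs and no bait had more in naive PSCs. Of all fragments, 9.81% were called higher in primed and 15.2% higher in naive PSCs, by limma with Benjamini-Hochberg adjustment over 88413 fragments. The *POU3F2* bait read −1.28 and −1.31 log2 RPM in the naive libraries and 0.27, −0.52 and −0.01 in the primed ones. Every primed library lay above both naive ones, with a difference of 1.20 (SE 0.37, limma adjusted p = 0.00997). The *SIM2* bait read −0.45 and −0.93 in naive and 0.39, 0.28 and 0.12 in primed PSCs, again without overlap (difference 0.96, SE 0.37, limma adjusted p = 0.049). Both calls were lost when either naive library was left out, with limma adjusted p of 0.13 and 0.12 for *POU3F2* and 0.13 and 0.35 for *SIM2*, and that of *SIM2* also without primed replicate 1 (0.055) or 3 (0.11). Without naive replicate 1 or 2 the difference was 1.22 and 1.19 for *POU3F2* and 1.20 and 0.72 for *SIM2*, and a lone naive library is assumed to vary like the primed ones.

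The other 4 baits were not called. The *OTP* promoter bait lay higher in both naive libraries (0.56 and 0.62) than in the primed ones (0.25, −0.88 and −0.34), with a difference of −0.92 (SE 0.38, limma adjusted p = 0.070). Without primed replicate 1 it was called (−1.20, limma adjusted p = 0.0054), whereas it was −0.46 by the mean linear RPM, −0.27 with edgeR on recovered reads and −0.01 by the highest tile. *SIM1* read 0.36 and −0.78 in naive and 0.45, 0.35 and 0.25 in primed PSCs, and *NR2E1* read 0.52 and 0.04 in naive and 0.75, 0.16 and 0.24 in primed PSCs. The groups overlap at both, and the limma adjusted p was 0.34 for *SIM1* and 0.92 for *NR2E1*. The *OTP* gene body bait was low in all 5 libraries, between −1.86 and −1.43.

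Tiles were also read singly along the baits, where calls were no more common than among all tiles tested. Of 128 tiles of the 6 baits, 73 exceeded 0 on the log2 RPM scale in 2 or more libraries and were tested. In primed PSCs 15 were higher, 10 in *SIM2* and 5 in *POU3F2*, and 1 was higher in naive PSCs, in the *OTP* promoter. Over all 465156 tiles tested 25.9% were higher in primed and 26.1% in naive PSCs. Most of the 15 tiles passed the filter through primed libraries alone, with both naive libraries below 0. The single tile passed through the naive libraries alone. The direction of these calls is therefore tied to how tiles were chosen. Without naive replicate 2 the 15 became 9, and the single tile was not called when naive replicate 1, naive replicate 2 or primed replicate 3 was left out. In *SIM2* a run of 6 tiles, about 5 to 8 kb into the gene, was higher in primed PSCs throughout, with the greatest difference at chr21:36706001-36706500, which read −2.86 and −1.75 in naive and 1.02, 1.83 and 0.91 in primed PSCs (difference 3.56). The *POU3F2* tiles that differed lay towards both ends of its bait, at chr6:98830501-98831500 and chr6:98842001-98843500, whereas the tile at the transcript start did not pass (difference 0.31, limma adjusted p = 0.65). In the *OTP* bait the tile at chr5:77639501-77640000 read 0.14 and 0.83 in naive and −0.56, −1.98 and −1.41 in primed PSCs (difference −1.80, limma adjusted p = 0.025), while the tile with the transcript start read 0.95 and 1.05 in naive and 0.94, 1.11 and 0.88 in primed PSCs.

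**Figure D4:**
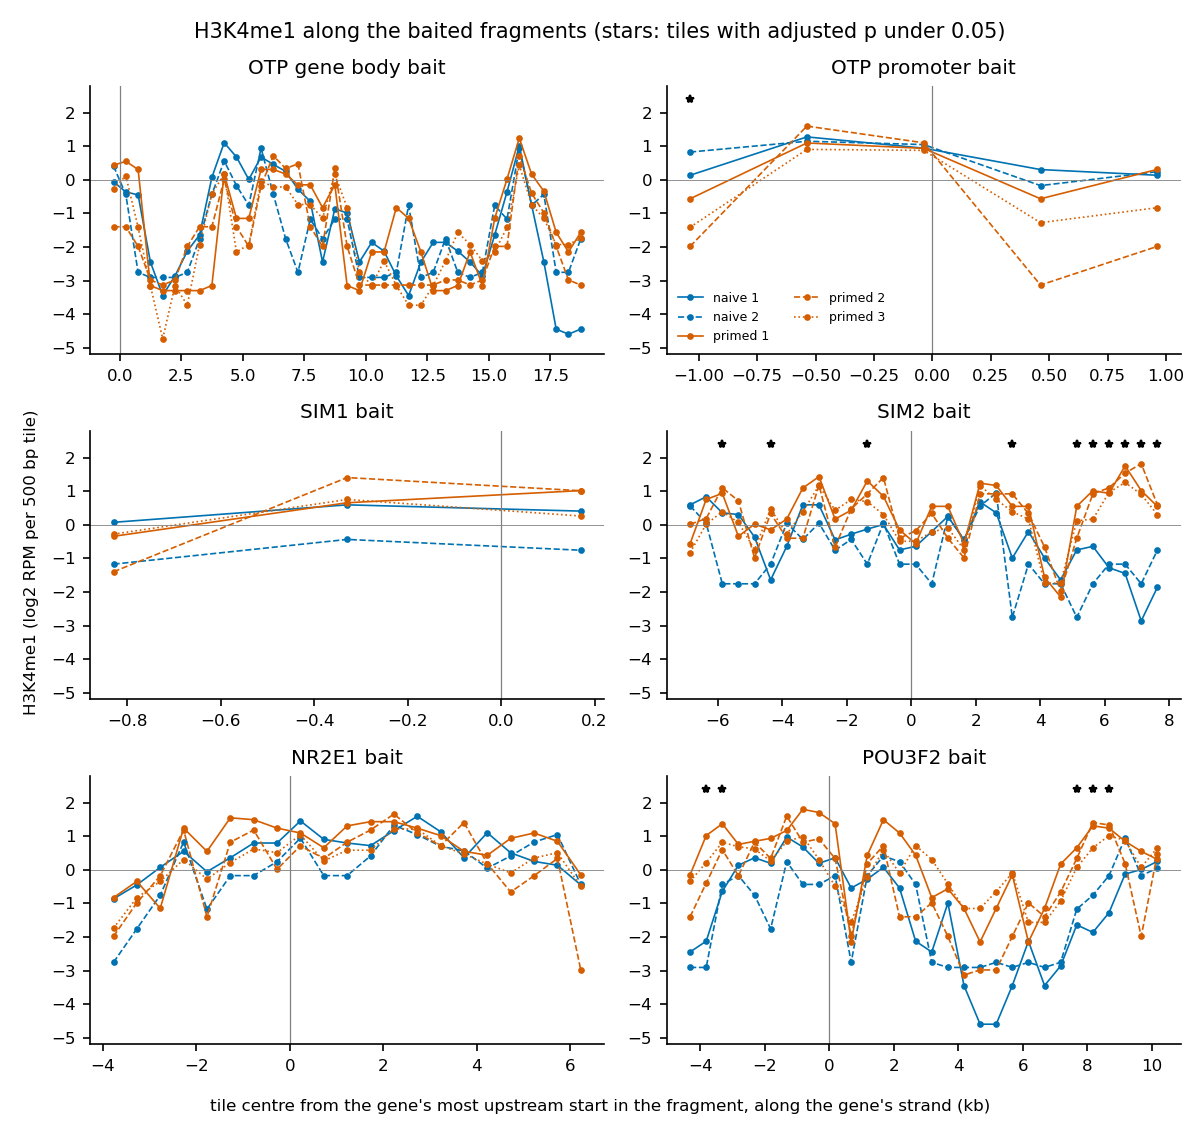
H3K4me1 (log2 RPM) of the 5 libraries in 500 bp tiles along each of the 6 baits, against the distance from the transcript start in kb, with stars at tiles with an adjusted p under the threshold. Stars stand at 10 tiles of SIM2 and 5 of POU3F2, where the primed lines run above the naive ones, and at 1 tile of OTP, where they run below.

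The tile with the highest mean of each bait differed by less. It was −0.01 in difference for the *OTP* promoter (1.28 and 1.15 in naive, 1.10, 1.60 and 0.91 in primed PSCs) and 0.19 for *NR2E1* (1.17 and 1.33 in naive, 1.44, 1.66 and 1.22 in primed PSCs). In *SIM2* it was 0.49, in *POU3F2* 0.60 and in *SIM1* 0.86, none of which passed, with a limma adjusted p of 0.30, 0.24 and 0.13. This choice by the mean of all libraries favours tiles that are high in both cell types. In primed PSCs alone, the *SIM2* tiles at chr21:36705501-36706500 had means of 1.52 and 1.25, above the 1.12 of the tile with the highest mean. Both naive libraries lay below 0 there, so these tiles entered the test through the primed libraries alone. The direction of their calls is tied to that choice.

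Partner fragments with more H3K4me1 in primed PSCs lay mostly beyond 1 Mb, 36 of 43. Of the 232 partners, 43 (18.5%) had more H3K4me1 in primed and 16 (6.90%) in naive PSCs, with a median difference of 0.23. Over all fragments these shares were 9.81% and 15.2%, with a median of −0.06. Partners next to each other share a region and are not replicates. Of the 127 partners up to 1 Mb, 7 were higher in primed and 11 in naive PSCs (median −0.05). Of the 104 over 1 Mb, 36 (34.6%) were higher in primed and 5 (4.81%) in naive PSCs, with a median of 0.61. For all 5803 fragments of primed long-range contacts these shares were 12.5% and 9.15%, with a median of 0.09. Without naive replicate 1, the deeper of the naive libraries, fewer partners were called higher in primed PSCs. Without naive replicate 2, fewer were called higher in naive PSCs. Both fits rest on a lone naive library, and over all fragments the same calls fell too.

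**Figure D5:**
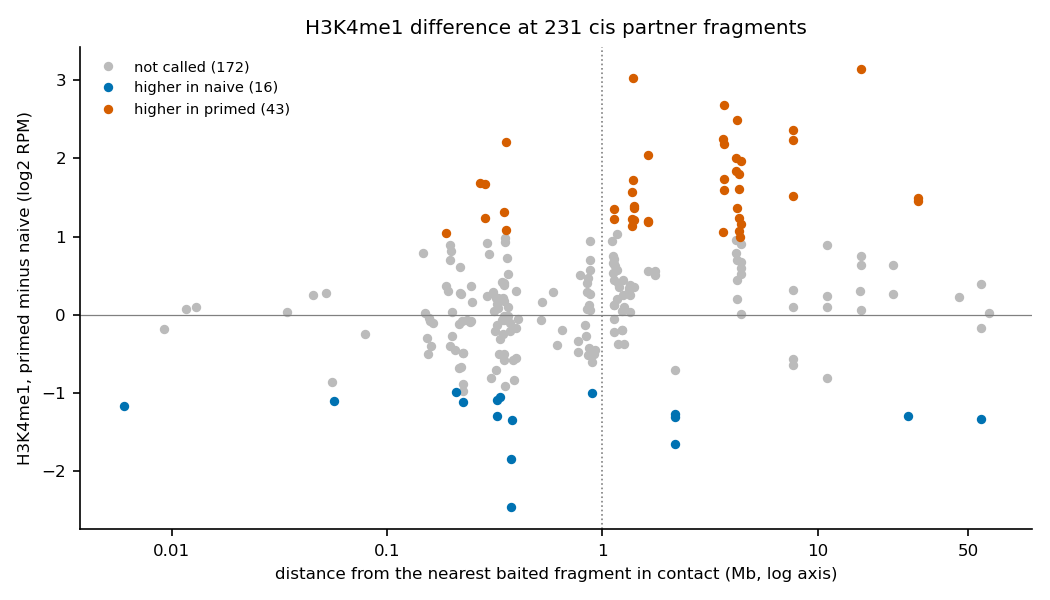
Difference in H3K4me1 (log2, primed minus naive) of the 231 cis partner fragments against distance from the nearest bait (Mb, log axis), coloured by call. Of these, 43 are higher in primed and 16 in naive PSCs, and the calls higher in primed PSCs gather beyond 1 Mb.

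The primed-higher calls sat in a few regions. All 6 fragments of the *OLIG1* and *OLIG2* region in contact with *SIM2* were higher in primed PSCs (median difference 1.96). The *OLIG2* exon fragment chr21:33027296-33030748 read −2.70 and −2.81 in naive and 0.03, −0.02 and −0.23 in primed PSCs (difference 2.68, SE 0.36, limma adjusted p = 2.24e-08), so that its groups were far apart. For *OTP*, 7 of 12 fragments near *TMEM174* and 4 of 9 at *FOXD1* were higher in primed PSCs. At chr5:73416867-73417943 beside *FOXD1* the libraries read −3.00 and −2.80 in naive and 0.12, −0.85 and −0.49 in primed PSCs (difference 2.50, limma adjusted p = 2.03e-07), whereas the *FOXD1* promoter fragment was not called (0.80, limma adjusted p = 0.11). Close to *NR2F1*, the fragment chr5:93601523-93601930 had the greatest difference of all partners, 3.15, with −1.86 and −2.91 in naive and 1.25, 0.02 and 1.02 in primed PSCs (limma adjusted p = 2.97e-09). This fragment of 408 bp lies within a single tile, and −2.91 is the value of an empty tile in naive replicate 2. The size of this difference is therefore less exact than that of longer fragments.

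On chromosome 6 the regions differed from each other. In the upstream region of *POU3F2*, 8 of 14 fragments of one run and 2 of 27 of the next were higher in primed PSCs, with −3.81 and −2.64 in naive and 0.75, −1.42 and 0.07 in primed PSCs at chr6:97441628-97446781 (difference 3.03, limma adjusted p = 3.66e-08). Of the 5 *SIM1* fragments in contact with *NR2E1*, 3 were higher in primed PSCs. The exon fragment chr6:100453728-100456069 read −1.83 and −2.04 in naive and 0.79, 0.14 and 0.35 in primed PSCs (difference 2.36, limma adjusted p = 6.86e-07), although the *SIM1* bait itself did not pass. Both *OLIG3* fragments were higher in primed PSCs. None of the 8 fragments at *TSTD3* and *PRDM13* in contact with *NR2E1* was called in either direction, and the *PRDM13* promoter fragment differed by −0.34 (limma adjusted p = 0.62), although its contacts were listed in primed PSCs alone.

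Some primed contacts had less H3K4me1 in primed than in naive PSCs. At the *AP3B1* promoter fragment chr5:78015885-78016823, where the contact of *OTP* scored higher in primed PSCs, the mark read 0.67 and −0.11 in naive and −1.09, −2.75 and −2.71 in primed PSCs (difference −2.46, SE 0.39, limma adjusted p = 1.39e-06). The neighbouring fragment chr5:78012494-78015884, which had the stronger contact, read −1.93 and −0.86 in naive and −3.06, −3.09 and −3.55 in primed PSCs (difference −1.84, limma adjusted p = 0.000208, and 0.051 without naive replicate 2). Every naive library lay above every primed one at both. Of the 39 fragments in that region of *TBCA* and *AP3B1*, 6 were higher in naive and 4 in primed PSCs. For *NR2E1*, 3 of 4 fragments at *PRDM1* were higher in naive PSCs, among them chr6:105989526-105991264 with 0.06 and −0.30 in naive and −1.99, −1.83 and −1.48 in primed PSCs (difference −1.65, limma adjusted p = 0.00028). The *TFAP2D* intron fragment was higher in naive PSCs too (difference −1.34, limma adjusted p = 0.0032), a call lost when either naive library was left out (limma adjusted p = 0.063 and 0.054).

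Counted by bait, *SIM2* had 7 of 24 (29.2%) and *POU3F2* 10 of 49 (20.4%) partners higher in primed PSCs. Neither bait had a partner higher in naive PSCs. The *OTP* promoter had 16 and 7 of 78 (20.5% and 8.97%), and *SIM1* 6 and 2 of 54 (11.1% and 3.70%). *NR2E1* had 6 and 8 of 42 (14.3% and 19.0%) and the *OTP* gene body 0 and 5 of 21 (0% and 23.8%). Over all fragments 9.81% were higher in primed and 15.2% in naive PSCs, and several of these shares lie near that. Of the 51 partners with a contact in both lists, 4 (7.84%) were higher in primed and 5 (9.80%) in naive PSCs. Of the 171 with a contact in the primed list alone, these were 37 (21.6%) and 11 (6.43%), in which the regions named above weigh most.

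Other genes of the hypothalamus were read in the same way, from lists chosen with earlier results known. All 21 patterning and neuroendocrine transcription factors were baited, on 22 fragments. Of the 21 genes, 18 had more primed than naive contacts and 15 at least doubled, where 29.5% of all baits did, with medians of 5 and 18 contacts and with 3 and 125 long-range contacts in all. *NKX2-1*, the factor of ventral hypothalamus and lung, had 20 naive and 63 primed contacts, *LHX9* 56 and 51, and *LHX2* and *SIX3*, eye and forebrain factors, had 30 primed contacts each. At their baits H3K4me1 was higher in primed PSCs at 8 fragments, those of *RAX*, *SIX3*, *SIX6*, *LHX9*, *DBX1*, *VAX1* and both of *FEZF1*, with differences of 0.97 to 2.62, and at none higher in naive PSCs (median 0.25). Of all baited fragments 7.66% were higher in primed and 18.1% in naive PSCs (median −0.18). None of their baits was in contact with any of the 5 genes, although a partner fragment of the *OTP* promoter lay directly beside the *ISL1* bait.

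Genes that work with or after the 5 factors, and their relatives, varied in contacts. *ARNT* and *ARNT2*, for the dimer partners of SIM proteins, had 1 and 2 naive contacts and none in primed PSCs. *ARNT2* had more H3K4me1 in primed PSCs (difference 1.01, limma adjusted p = 0.028) and *ARNT* less (−1.58). Of the 6 relatives of *POU3F2* and *NR2E1*, 4 had more primed contacts, and none of their 7 baited fragments was called for H3K4me1, with *POU3F1* at 25 naive and 31 primed contacts. Of 12 neuropeptide and receptor genes, 8 were baited, 2 with more primed and 6 with more naive contacts and none with a long-range contact. *SST*, for somatostatin, had 34 naive and 33 primed contacts, *CRH*, for corticotropin-releasing hormone, had 18 and 13, the melanocortin receptor gene *MC4R* had 4 and 14, and *POMC*, for the precursor of melanocortins, had 8 and 1 and less H3K4me1 in primed PSCs (−1.08).

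Finally, each bait was set beside the baits with the most similar contact numbers, as the Euclidean distance over 10 values, log2(number + 1) of contacts in 5 distance classes in each of 2 cell types. Nearest to the *OTP* promoter was the *NKX2-1* fragment, which also holds *SFTA3* (distance 1.38). Among those close to *SIM1* were *MIR124-2* (2.32) and *NKX6-1* (2.33), and nearest to *SIM2* was that of *CRYBA2* and *FEV* (1.56). *NR2E1* lay closest to fragments of *SFTA3* (2.76) and *TBX3* (3.03). *POU3F2* lay closest to *LINC02880* (2.18), an intergenic bait whose nearest gene is *PITRM1* (2.215) and *FZD8* (2.44). The *OTP* gene body bait lay closest to *MIR194-1* with *MIR215* (1.11), *DMRTA2* (1.38) and *DKK1* (1.39).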

How the data were processed

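Groups and replicate numbers of the PCHi-C, Hi-C and H3K4me1 libraries follow the labels. ChIP-seq of NANOG, SOX2 and input was not analysed here. The authors mapped PCHi-C read pairs to GRCh38 with HiCUP, combined 2 replicates per cell type in CHiCAGO and deposited those scoring 5 or more on the CHiCAGO score, together with scaled read numbers. The Hi-C values deposited are the count of di-tags in each pair of 100 kb bins, without normalisation, and the naive file lists few pairs at longer distances. For H3K4me1, the authors trimmed reads (Trim Galore 0.5.0), mapped them (Bowtie2 2.3.2) and deposited log2 RPM in SeqMonk tiles of 500 bp. A tile without reads was set to 0.9 reads, and a read across 2 tiles is counted in both. Submitters' processing notes also name Trim Galore 0.4.5 and Bowtie2 2.2.7.

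Baits were named from GENCODE release 44, and all 235 fragments examined began at a HindIII site of GRCh38. Partners within 60 kb of each other were taken as one run. Fragments (mean of their tiles) and tiles exceeding 0 (log2 RPM) in 2 or more libraries were tested in limma 3.58.1 under R 4.3.3, by lmFit and then eBayes with a mean trend, with Benjamini-Hochberg adjustment and a threshold of 0.05. The limma code was tested on simulated data. As 100% of the tile values came out as whole reads (tolerance 0.01), edgeR 4.0.16 was run on recovered reads as an alternative, chosen after seeing the data. Intervals are 95% Wilson intervals for shares and cover counting error only. Contacts were not tested between cell types, as each has 1 list and 1 Hi-C library. Other steps used Python 3.11.15 with scipy 1.17.1, pandas 2.3.3, numpy 2.4.6 and matplotlib 3.10.9.

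The 5 genes, the gene lists and the rule for named partners were chosen with earlier results of these data known. By that rule, named partners are baited partners (the 10 with the highest score where there are more), the 5 unbaited fragments with the highest score per cell type, trans and farthest partners, and the 5 partners with the lowest adjusted p in each direction. Runs, *SESN1*, *TSTD3* and single tiles beside the highest one were named after their values were seen. Alternatives were stricter scores, a read minimum, matching of ends within 10 kb, other fragment summaries, quantile normalisation, no trend, a replicate block and leaving out each library. Some items that the rule or the lists would name are not reported here.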

Additional observations from a re-analysis of the deposited data

How the results depend on the processing

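The direction of the contact difference held under each setting tried. The ratio of primed to naive contacts of the 5 genes, 4.18, was 7.40 at a score of at least 7 and 12.2 at 10. Primed contacts over 1 Mb numbered 68 at a score of at least 10 and 47 with at least 10 reads, against 117, and naive ones 2 at a score of 7, 1 at 10 and 2 with at least 10 reads, against 10. The share of naive contacts also listed in primed PSCs was 93.4% with ends matched within 10 kb. The share of primed contacts listed in naive PSCs was 11.9% at a score of 7, 6.72% at 10 and 44.3% within 10 kb. Without interactions over 1 Mb the primed genes of chromosome 6 lay in 2 sub-networks and not 1. The median Hi-C ratio over 3 by 3 bins was 3.17.

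H3K4me1 calls depended more on the setting, and calls over all fragments moved too. Over all 88413 fragments, 8674 were higher in primed and 13462 in naive PSCs. These counts were 5839 and 9997 without trend, 8771 and 10282 by the highest tile, and 9935 and 11054 after quantile normalisation. Baits higher in primed PSCs (2) were 0 by the highest tile, 1 without trend, 0 with the replicate block and 0 to 2 with a library left out, and those higher in naive PSCs (0) were 0 to 1. Partners higher in primed PSCs (43) were 28 without trend and 15 to 51 with a library left out. Partners higher in naive PSCs (16) were 7 by the highest tile, 10 after quantile normalisation, 8 without trend, 8 with edgeR and 3 to 14 with a library left out. Over 1 Mb, partners higher in primed PSCs (36) ranged from 15 to 40 with a library left out, and those higher in naive PSCs (5) were 3 by the mean linear RPM, 0 by the highest tile, 2 with edgeR and 1 to 6 with a library left out. Up to 1 Mb, partners higher in primed PSCs (7) were 11 after quantile normalisation, 4 without trend, 13 with edgeR and 0 to 11 with a library left out. Bait tiles higher in primed PSCs (15) were 4 with tiles above 1 in 2 libraries and 9 to 16 with a library left out, and the tile higher in naive PSCs (1) became 0 over all tiles with a read, 0 with tiles above 1, 0 with the block and 0 to 2 with a library left out. The difference at the *OTP* gene body bait turned to 0.12 after quantile normalisation and 0.048 with edgeR, and with a library left out it ranged from −0.015 (without naive replicate 2) to 1.13 at *SIM1*, and from −0.14 (without naive replicate 2; −0.08 without primed replicate 1) to 0.34 at *NR2E1*. The cause of these changes was not tested.

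Replicate numbers did not pair the libraries: deviations of same-numbered libraries correlated at 0.0814 and 0.205 over 2 pairs, and naive replicate 1 with primed replicate 3 at 0.156. With the replicate block the limma adjusted p was 0.098 for *SIM2* and 0.056 for *POU3F2*. At single partners, limma adjusted p of the *AP3B1* fragment chr5:78012494-78015884 was 0.051 without naive replicate 2. Single contacts of 3 to 5 reads and tiles of the shallow libraries limit what these data can show.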
